A study of Homo sapiens with 12 samples.

Results

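The genes described here encode 8 human enzymes that conjugate or reduce drugs, steroids and products of lipid oxidation. GSTA1, GSTA2 and GSTA4 are glutathione transferases of the alpha class, AKR1C1, AKR1C2 and AKR1C3 are aldo-keto reductases, and SULT2A1 and SULT1E1 are cytosolic sulfotransferases. They were found as every probe set annotated with 1 of these symbols alone, which gave 9 probe sets, 2 of them for AKR1C1, and 8 of the 18417 genes on the arrays. RNA came from HepG2, an established line of human hepatoma cells, and was measured on 12 Affymetrix gene arrays in 6 groups of 2. The groups were the sh-p53 line, which carries a hairpin RNA against p53, with Nutlin, with AICAR and with DMSO, and the sh-con line, which carries a hairpin without a relevant target, with Nutlin, with AICAR and with DMSO. Nutlin was given at 10 uM, AICAR at 0.5 mM and DMSO as the vehicle control, each for 24 h, and the study's design presents Nutlin and AICAR as p53 stimulators. Nutlin keeps the ubiquitin ligase MDM2 from binding p53, and AICAR is a nucleoside that cells turn into a mimic of AMP, which activates the energy sensor AMPK. Each hairpin was represented by 1 line, so the hairpin and any other difference between the lines cannot be told apart.

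Glutathione transferases couple glutathione to reactive electrophiles, and the alpha class is abundant in hepatocytes. GSTA1 and GSTA2 also reduce lipid hydroperoxides and bind bilirubin and steroids, while GSTA4 prefers the reactive alkenals that form when lipids oxidise. The AKR1C enzymes reduce carbonyl groups with NADPH: AKR1C1 inactivates progesterone, AKR1C2 inactivates dihydrotestosterone, and AKR1C3 makes testosterone and prostaglandin F. SULT2A1 adds sulfate to dehydroepiandrosterone and to bile acids in liver and adrenal, and SULT1E1 does so to oestrogens. In human cells the transcription factor NRF2 is known to act on AKR1C genes, and HNF1 on the GSTA1 promoter.

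Levels below are deposited log2 values of the robust multi-array average (RMA), given for array 1 and then array 2 of a group, and each difference is a log2 fold change ± its standard error from 1 linear model of all 12 arrays (limma). A gene was called when its Benjamini-Hochberg adjusted p over all 13813 genes tested was under 0.05. A gene was left untested where its mean level was below 4.577, which is the 25th percentile over genes. Of the 8 genes, 7 passed that filter and SULT1E1 did not. RMA values carry no detection call, so a low value may be mostly background, and in bulk RNA fewer cells expressing a gene and less RNA per cell cannot be told apart. GSTA1 and GSTA2, and the AKR1C genes, are close relatives, and a probe set of 1 of them may also measure another.

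The transcript of p53 itself was not analysed here. Its targets CDKN1A and TP53I3 rose with Nutlin in the sh-con line, by 2.84 ± 0.13 and 3.50 ± 0.16 (limma, adjusted p = 2.67e-11 and 1.81e-11). In the sh-p53 line CDKN1A rose by 1.39 ± 0.13 (limma, adjusted p = 6.67e-05), and TP53I3 had a log2 fold change of 0.44 ± 0.16 (limma, adjusted p = 0.542). The Nutlin response of both genes was smaller in the sh-p53 line, with a difference of -1.45 ± 0.19 for CDKN1A and -3.05 ± 0.22 for TP53I3 (limma interaction, adjusted p = 3.82e-05 and 5.74e-08). MDM2, a further p53 target checked, rose by 1.32 ± 0.14 in sh-p53 cells and by 1.59 ± 0.14 in sh-con cells (limma, adjusted p = 9.08e-05 and 6.12e-08). Its responses differed by -0.27 ± 0.19, which was not called (limma interaction, adjusted p = 0.481). All 12 hepatocyte markers passed the filter, and their summed level was 15.51 to 15.63 on the 6 sh-p53 arrays and 15.62 to 15.75 on the 6 sh-con arrays (log2). Among them TTR was called lower in sh-p53 cells with Nutlin (-0.44) and AFP with AICAR (-0.52). Of all genes tested, 8.31% were called lower there with Nutlin and 4.69% with AICAR. None of the 12 was called between the lines in DMSO. Of 6 endothelial markers, LYVE1 alone passed the filter: its mean was 4.52 in sh-p53 Nutlin cells and 8.07 in sh-con Nutlin cells, against 4.32 in sh-p53 DMSO cells and 4.42 in sh-con DMSO cells, while PECAM1 and CDH5 lay below the filter. LYVE1 passed it only through the sh-con Nutlin arrays, since its other group means were 4.32 to 4.77. Of 3 leukocyte markers tested 2 rose with AICAR in each line. CD14 and CD68 rose in sh-con cells, by 0.93 ± 0.15 and 0.59 ± 0.13 (limma, adjusted p = 9.8e-05 and 0.00198), while PTPRC, the pan-leukocyte marker, lay below the filter at 3.26 over the 12 arrays. None of the 4 fibroblast markers tested was called in any of the 11 comparisons. Of 5 cholangiocyte and progenitor markers tested, Nutlin raised 1 and lowered 2 in sh-con cells, where 11.3% of all genes tested were called higher and 18.9% lower. KRT19 rose there by 1.07 ± 0.14, while PROM1 fell by 0.54 ± 0.15 and EPCAM by 0.39 ± 0.14 (limma, adjusted p = 1.72e-05, 0.0132 and 0.0422). The part of these markers in the results below was not tested.

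The GSTA genes lie together on chromosome 6 in the order GSTA2, GSTA1, GSTA5, GSTA3, GSTA4, and the AKR1C genes lie on chromosome 10 in the order AKR1C1, AKR1C2, AKR1C3, AKR1C8, AKR1C4 (RefSeq, GRCh38.p14). GSTA5, AKR1C8 and AKR1C4 lay below the filter. The promoters of GSTA1 and GSTA2 are shown because these neighbours nearly share a promoter sequence and yet changed in opposite directions with AICAR in sh-con cells. The GSTA1 fall there depended on single arrays, as given below, and neither gene was called with AICAR in sh-p53 cells. Each line gives the 250 bases before the RefSeq start, 5′ to 3′ on the gene's strand, and capitals mark the bases that differ between the pair. The GSTA1 window is chr6:52803817-52804066 and the GSTA2 window chr6:52763476-52763725, both on the minus strand of GRCh38.p14.
GSTA1: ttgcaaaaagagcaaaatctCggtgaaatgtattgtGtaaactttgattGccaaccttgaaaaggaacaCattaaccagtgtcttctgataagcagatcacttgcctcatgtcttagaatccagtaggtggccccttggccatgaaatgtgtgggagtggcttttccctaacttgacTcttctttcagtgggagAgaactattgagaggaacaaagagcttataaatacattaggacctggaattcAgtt
GSTA2: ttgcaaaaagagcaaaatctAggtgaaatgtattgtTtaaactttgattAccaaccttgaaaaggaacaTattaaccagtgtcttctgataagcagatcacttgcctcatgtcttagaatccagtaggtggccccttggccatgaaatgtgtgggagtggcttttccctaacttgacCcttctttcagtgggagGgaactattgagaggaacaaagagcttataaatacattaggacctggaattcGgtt
The windows share 243 of 250 aligned bases and differ at 7. Both hold GTTAAT, a core of the site read by HNF1, on the opposite strand, 180 bases before the start.

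The promoters of AKR1C1 and AKR1C2 are shown because they too are nearly alike, while AKR1C2 had the larger difference between the lines. The AKR1C1 window is chr10:4963165-4963414 on the plus strand and the AKR1C2 window chr10:5003858-5004107 on the minus strand, with the same use of capitals.
AKR1C1: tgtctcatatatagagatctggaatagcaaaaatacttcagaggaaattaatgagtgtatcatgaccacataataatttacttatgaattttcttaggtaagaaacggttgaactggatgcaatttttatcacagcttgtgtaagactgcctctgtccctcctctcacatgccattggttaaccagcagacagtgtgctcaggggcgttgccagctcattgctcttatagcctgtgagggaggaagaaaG
AKR1C2: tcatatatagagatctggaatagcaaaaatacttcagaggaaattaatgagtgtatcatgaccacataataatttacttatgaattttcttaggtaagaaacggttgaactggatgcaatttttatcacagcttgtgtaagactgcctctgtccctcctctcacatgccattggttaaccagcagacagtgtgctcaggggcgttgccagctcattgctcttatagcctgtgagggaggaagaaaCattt
Of 246 aligned bases 245 were identical. The AKR1C1 window was less like a window of AKR1C3, with 76.8% of aligned bases identical. Across the 9 promoter windows that RefSeq gives for the 8 genes, GTTAAT (either strand) was found for GSTA1, GSTA2 and SULT1E1, against 6.23% of 35116 human promoters. TGACNNNGC, the core of the antioxidant response element (either strand), was found for GSTA4, against 10.9%, and the 10-base p53 motif was found in none of the 9 windows, against 5.57%. These matches describe the letters of the windows only.

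GSTA1 had the largest difference between the lines of the 7 genes tested, and it was lower in the sh-p53 line in all 3 treatments. In sh-p53 cells GSTA1 was at 4.83 and 4.84 with Nutlin, 4.93 and 4.74 with AICAR, and 4.88 and 4.95 with DMSO. In sh-con cells it was at 8.007 and 8.001 with Nutlin, 7.28 and 6.97 with AICAR, and 7.68 and 7.45 with DMSO. The lines did not overlap: the highest sh-p53 array stood 2 log2 units or more below the lowest sh-con array, and the sh-p53 arrays lay just above the filter level. GSTA1 was 8.98-fold lower in sh-p53 cells with Nutlin (log2 fold change -3.17 ± 0.14; limma, adjusted p = 4.36e-11), 4.88-fold lower with AICAR (-2.29 ± 0.14, adjusted p = 1.34e-08) and 6.29-fold lower with DMSO (-2.65 ± 0.14, adjusted p = 3.91e-09).

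GSTA2, its neighbour, was also lower in the sh-p53 line, with a gap that was small in DMSO. With Nutlin it was at 4.51 and 4.29 in sh-p53 cells and at 5.85 and 6.99 in sh-con cells. With AICAR it was at 4.54 and 4.75 in sh-p53 cells and at 6.41 and 6.04 in sh-con cells, and with DMSO at 4.40 and 4.47 in sh-p53 cells and at 5.14 and 4.98 in sh-con cells. The sh-p53 means with Nutlin and with DMSO lay below the filter level, so GSTA2 was tested only because of its sh-con levels, and a gap between the lines follows in part from the filter. The log2 fold change was -2.02 ± 0.25 with Nutlin (limma, adjusted p = 7.08e-06), -1.58 ± 0.25 with AICAR (limma, adjusted p = 0.000506) and -0.62 ± 0.25 with DMSO (limma, adjusted p = 0.634).

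GSTA4 behaved otherwise. In DMSO it was at 7.07 and 7.17 in sh-p53 cells and at 7.20 and 7.04 in sh-con cells, with overlapping arrays and a difference of -0.0012 (95% interval -0.30 to 0.29). With Nutlin it was at 7.22 and 6.93 in sh-p53 cells and at 6.57 and 6.46 in sh-con cells, so that it was higher in sh-p53 cells by 0.56 ± 0.14 (limma, adjusted p = 0.00709). That call was lost without sh-con Nutlin array 2 (0.51, adjusted p = 0.0725 in limma) and without sh-p53 Nutlin array 1 (0.42, adjusted p = 0.118). With AICAR GSTA4 was at 6.60 and 6.70 in sh-p53 cells and at 6.75 and 6.80 in sh-con cells, a difference of -0.12 ± 0.14 that was not called (limma, adjusted p = 0.68).

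**Figure D1:**
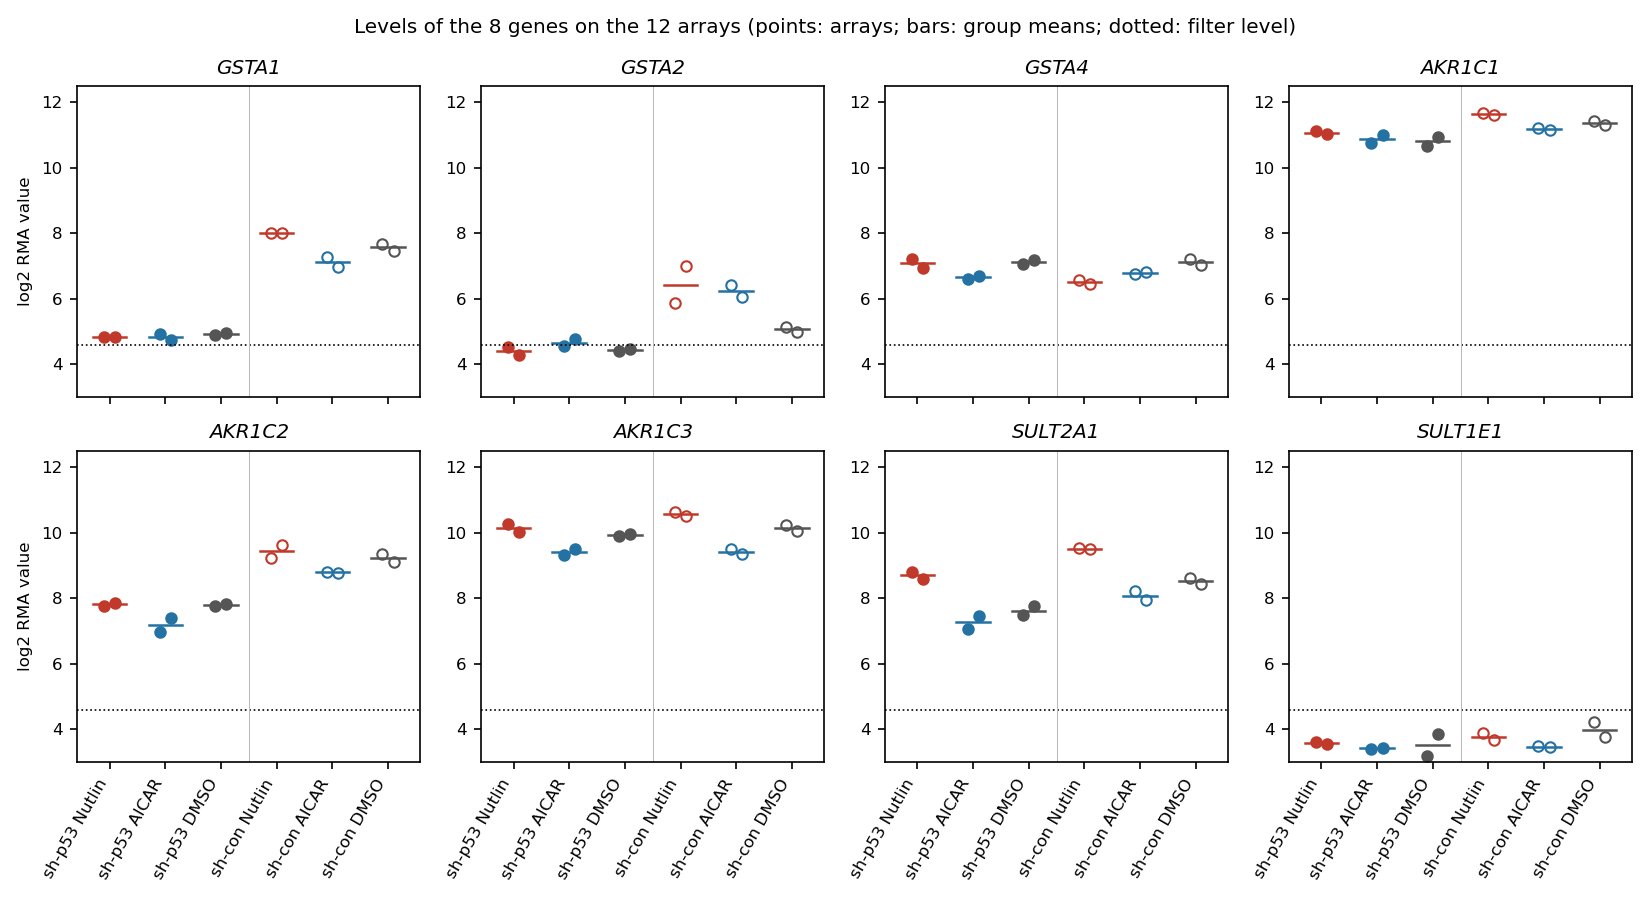
Log2 RMA level (vertical axis) of each of the 8 genes on the 12 arrays, with groups along the horizontal axis; points are arrays, short bars are group means of 2 arrays, filled points are sh-p53 and open points sh-con, and the dotted line is the filter level of 4.577. GSTA1 stays between 4.74 and 4.95 on the 6 sh-p53 arrays and between 6.97 and 8.007 on the 6 sh-con arrays, and SULT1E1 lies below the dotted line on all 12.

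Of the 3 AKR1C genes AKR1C2 had the widest gap between the lines. With Nutlin it was at 7.77 and 7.85 in sh-p53 cells and at 9.24 and 9.63 in sh-con cells. With AICAR it was at 6.96 and 7.40 in sh-p53 cells and at 8.79 and 8.78 in sh-con cells, and with DMSO at 7.75 and 7.83 in sh-p53 cells and at 9.36 and 9.12 in sh-con cells. Every sh-p53 array lay below every sh-con array. AKR1C2 was 3.09-fold lower in sh-p53 cells with Nutlin (-1.63 ± 0.17; limma, adjusted p = 7.24e-07), 3.05-fold lower with AICAR (-1.61 ± 0.17, adjusted p = 6.98e-06) and 2.74-fold lower with DMSO (-1.45 ± 0.17, adjusted p = 9.62e-05).

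AKR1C1 differed less. It was at 11.12 and 11.03 in sh-p53 Nutlin cells and at 11.68 and 11.62 in sh-con Nutlin cells, 1.49-fold lower in sh-p53 cells (-0.58 ± 0.14; limma, adjusted p = 0.0059). In AICAR it was at 10.76 and 10.99 in sh-p53 cells and at 11.21 and 11.14 in sh-con cells (-0.30 ± 0.14; limma, adjusted p = 0.229), and in DMSO at 10.68 and 10.93 in sh-p53 cells and at 11.44 and 11.32 in sh-con cells (-0.57 ± 0.14; limma, adjusted p = 0.0884). By this brighter of its 2 probe sets the sh-p53 arrays were below the sh-con arrays in each treatment, but only the Nutlin gap was called. In DMSO it was called after a new quantile normalisation (-0.57, adjusted p = 0.0284 in limma), with a prior variance that follows the level (-0.57, adjusted p = 0.00445) and with the 4 DMSO arrays fitted alone (-0.57, adjusted p = 0.0412). A dimmer AKR1C1 probe set, at 6.19 to 6.88 on the 12 arrays, did not separate the lines in DMSO. It was at 6.39 and 6.24 in sh-p53 DMSO cells and at 6.19 and 6.46 in sh-con DMSO cells, a difference of -0.0044 (limma, adjusted p = 0.999).

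AKR1C3 was at 10.27 and 10.03 in sh-p53 Nutlin cells and at 10.64 and 10.51 in sh-con Nutlin cells, lower in sh-p53 cells (log2 fold change -0.43 ± 0.14; limma, adjusted p = 0.0406). That call was lost without sh-con Nutlin array 1 (-0.36), sh-con Nutlin array 2 (-0.49) or sh-p53 Nutlin array 2 (-0.31). It was also lost with centred arrays, where all array medians are set to the same value (-0.40, adjusted p = 0.0985 in limma). With the 4 Nutlin arrays fitted alone it was lost too (-0.43, adjusted p = 0.0558 in limma). In AICAR it was at 9.32 and 9.51 in sh-p53 cells and at 9.49 and 9.35 in sh-con cells, a difference of -0.0051 (95% interval -0.31 to 0.30). In DMSO it was at 9.90 and 9.95 in sh-p53 cells and at 10.24 and 10.04 in sh-con cells, a difference of -0.22 (95% interval -0.52 to 0.08).

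SULT2A1 was lower in the sh-p53 line in each treatment by a similar amount. With Nutlin it was at 8.80 and 8.60 in sh-p53 cells and at 9.52 and 9.50 in sh-con cells. With AICAR it was at 7.06 and 7.45 in sh-p53 cells and at 8.23 and 7.94 in sh-con cells, and with DMSO at 7.47 and 7.76 in sh-p53 cells and at 8.61 and 8.43 in sh-con cells. It was 1.75-fold lower in sh-p53 cells with Nutlin (-0.81 ± 0.16; limma, adjusted p = 0.00149), 1.78-fold lower with AICAR (-0.83 ± 0.16, adjusted p = 0.00388) and 1.88-fold lower with DMSO (-0.91 ± 0.16, adjusted p = 0.00736). The DMSO call was lost without sh-p53 DMSO array 1 (-0.76, adjusted p = 0.231 in limma) or sh-con DMSO array 1 (-0.82, adjusted p = 0.173), and the AICAR call without sh-p53 AICAR array 1 (-0.63, adjusted p = 0.0747). SULT1E1 lay between 3.18 and 4.21 on all 12 arrays and was not tested. With no gene left out for its level it was called in 1 of the 11 comparisons, lower with AICAR in sh-con cells (-0.52, adjusted p = 0.0494 in limma).

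Counted over the 7 genes tested, the sh-p53 line had 1 higher and 6 lower with Nutlin, where 13.1% of all genes tested were called higher and 8.31% lower. With AICAR 0 were higher and 4 lower, against 4.13% higher and 4.69% lower of all genes tested, and with DMSO 0 were higher and 3 lower, against 0.261% higher and 0.384% lower. GSTA2, which passed the filter through its sh-con levels, is among the lower genes with Nutlin and with AICAR, so these counts are a description. The members were also chosen with earlier results of these data known. The shares of all genes, here and in the counts below, are therefore no independent test of the members. The median difference of the 7 genes was -0.81 with Nutlin, -0.83 with AICAR and -0.62 with DMSO, against -0.029, 0.028 and -0.004 over all genes tested. GSTA2 enters these medians, and the DMSO median is its own value, so they are a description too. GSTA1, AKR1C2 and SULT2A1 were called lower in all 3 treatments, as 0.253% of all genes tested were. Together with GSTA2 and AKR1C1 they were also the 5 genes with both sh-p53 arrays under both sh-con arrays in every treatment (AKR1C1 by its brighter probe set only), against 4.0% of all genes tested. GSTA2 is in that set with the same limit from the filter.

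**Figure D2:**
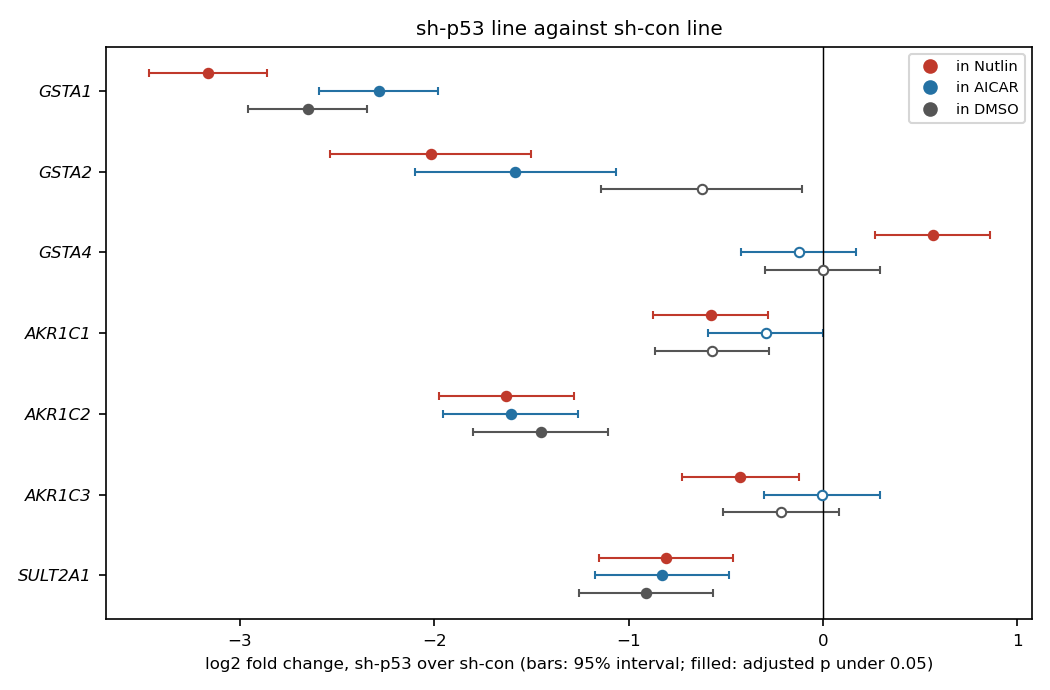
Log2 fold change of sh-p53 over sh-con cells (horizontal axis) for the 7 genes tested (vertical axis), in Nutlin (red), AICAR (blue) and DMSO (grey); bars are 95% intervals and filled points had an adjusted p under 0.05. GSTA1 lies at -3.17, -2.29 and -2.65, AKR1C2 near -1.6 and -1.5, and GSTA4 is above 0 in Nutlin alone, at 0.56.

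Nutlin raised 4 of the 7 genes and lowered 1 in the sh-con line, where 11.3% of all genes tested were called higher and 18.9% lower. GSTA2 rose 2.56-fold, with 5.85 and 6.99 on the Nutlin arrays and 5.14 and 4.98 on the DMSO arrays (log2 fold change 1.36 ± 0.25; limma, adjusted p = 0.00042). Its Nutlin arrays lay far apart, and the log2 fold change was 1.93 without Nutlin array 1 and 0.79 without Nutlin array 2, called both times. SULT2A1 rose 1.99-fold (0.99 ± 0.16; limma, adjusted p = 0.00018), and both of its Nutlin arrays stood above both DMSO arrays. GSTA1 rose 1.35-fold (0.44 ± 0.14; limma, adjusted p = 0.0307) and AKR1C3 1.35-fold (0.43 ± 0.14; limma, adjusted p = 0.029). GSTA4 fell by 0.61 ± 0.14 (limma, adjusted p = 0.00342), the opposite direction to GSTA1 and GSTA2. AKR1C1 and AKR1C2 had log2 fold changes of 0.27 ± 0.14 and 0.20 ± 0.17 that were not called (limma, adjusted p = 0.144 and 0.369).

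The small rises rested on all arrays. That of GSTA1 was not called without any 1 of the 4 sh-con Nutlin and DMSO arrays, namely DMSO array 1 (0.55, adjusted p = 0.052 in limma), DMSO array 2 (0.32, adjusted p = 0.208), Nutlin array 1 (0.43, adjusted p = 0.0951) or Nutlin array 2 (0.44, adjusted p = 0.124). That of AKR1C3 was likewise lost without DMSO array 1 (0.53, adjusted p = 0.0608 in limma), DMSO array 2 (0.34, adjusted p = 0.184), Nutlin array 1 (0.37, adjusted p = 0.139) or Nutlin array 2 (0.50, adjusted p = 0.0723). With each array centred on its median, GSTA1 (0.38, adjusted p = 0.0917 in limma) and AKR1C3 (0.38, adjusted p = 0.0987) were not called, and GSTA4 was not called without DMSO array 1 (-0.53, adjusted p = 0.062). AKR1C1 was called after a new quantile normalisation (0.31, adjusted p = 0.0409 in limma) and by its dimmer probe set, which had 6.88 and 6.77 with Nutlin and 6.19 and 6.46 with DMSO (0.50, adjusted p = 0.0199), an alternative chosen after seeing the data.

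In the sh-p53 line SULT2A1 was the only 1 of the 7 genes called with Nutlin, where 0.0796% of all genes tested were called. It was at 8.80 and 8.60 with Nutlin and at 7.47 and 7.76 with DMSO, 2.13-fold higher with Nutlin (1.09 ± 0.16; limma, adjusted p = 0.00619). SULT2A1 was 1 of 11 genes called there, all higher with Nutlin, and ranked 7 of the 11 by fold change. The others were CDKN1A, TP53INP1, ACTA2, MDM2, SPATA18, CYGB, ZMAT3, SESN1, SULF2 and MR1, with log2 fold changes of 0.85 to 1.39. The SULT2A1 call was lost without sh-p53 DMSO array 1 (0.95, adjusted p = 0.284 in limma) or sh-p53 Nutlin array 1 (0.99, adjusted p = 0.123), while both Nutlin arrays stood above both DMSO arrays. The other 6 genes had log2 fold changes between -0.08 and 0.27 in the sh-p53 line.

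**Figure D3:**
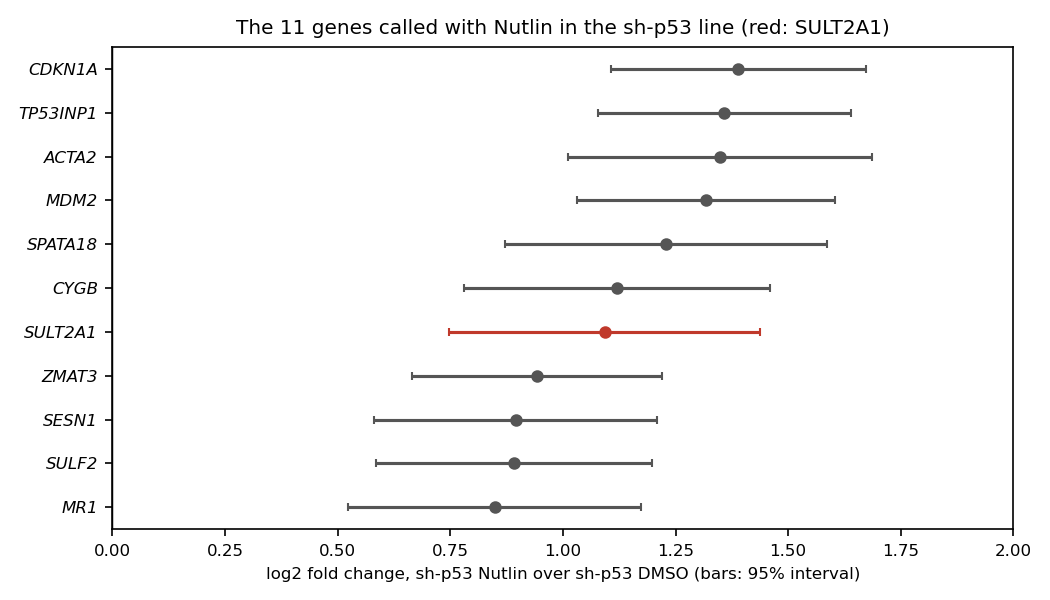
Log2 fold change of Nutlin over DMSO in sh-p53 cells (horizontal axis) for the 11 genes called in that comparison (vertical axis), ordered by size; points are estimates from 2 arrays a group and bars are 95% intervals, with SULT2A1 in red. SULT2A1 lies at 1.09, between CYGB at 1.12 and ZMAT3 at 0.94, below CDKN1A at 1.39.

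The difference of the Nutlin response between the lines was tested directly. GSTA2 alone of the 7 genes was called, with a smaller response in the sh-p53 line (difference of responses -1.39 ± 0.35; limma interaction, adjusted p = 0.0169), where 2.73% of all genes tested had a smaller or more negative response by the same call and 4.67% a larger one. Its log2 fold change with Nutlin was -0.04 ± 0.25 in sh-p53 cells, against 1.36 ± 0.25 in sh-con cells. Both sh-p53 means, 4.40 with Nutlin and 4.44 with DMSO, lay below the filter level, so the sh-p53 response was read at the floor of the arrays and the gene was tested only through its sh-con levels. The 2 sh-con Nutlin arrays of GSTA2 were far apart, at 5.85 and 6.99, and without the second the interaction was -0.83 (limma, adjusted p = 0.0675). It also missed the threshold without sh-con DMSO array 2 (-1.32, adjusted p = 0.0539 in limma), sh-p53 DMSO array 2 (-1.36, adjusted p = 0.0532) or sh-p53 Nutlin array 2 (-1.29, adjusted p = 0.0605), and after a new quantile normalisation (-1.38, adjusted p = 0.0603). For SULT2A1 the responses differed by 0.10 (95% interval -0.39 to 0.59), and for AKR1C1 by -0.0072 (95% interval -0.42 to 0.41). GSTA1 and GSTA4 had interactions of -0.51 ± 0.20 and 0.56 ± 0.20 that were not called (limma, adjusted p = 0.162 and 0.103), and GSTA1 was called after a new quantile normalisation (-0.70, adjusted p = 0.0162).

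With AICAR GSTA1 and GSTA2 changed in opposite directions in the sh-con line, and their levels came closer. There 1 of the 7 genes rose and 4 fell, where 14.6% of all genes tested were called higher and 23.2% lower. GSTA2 was at 6.41 and 6.04 with AICAR and at 5.14 and 4.98 with DMSO, 2.24-fold higher with AICAR (1.17 ± 0.25; limma, adjusted p = 0.00114). GSTA1 was at 7.28 and 6.97 with AICAR and at 7.68 and 7.45 with DMSO, lower with AICAR (-0.45 ± 0.14; limma, adjusted p = 0.0219). The AICAR arrays of GSTA2 stood above its DMSO arrays, and those of GSTA1 below.

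AKR1C2, AKR1C3 and SULT2A1 fell in the same cells. AKR1C3 fell to 9.49 and 9.35 in sh-con AICAR cells, against 10.24 and 10.04 in sh-con DMSO cells (-0.72 ± 0.14; limma, adjusted p = 0.000663). AKR1C2 fell by 0.46 ± 0.17 (limma, adjusted p = 0.0377) and SULT2A1 by 0.44 ± 0.16 (limma, adjusted p = 0.0437). AKR1C1 had -0.20 ± 0.14 and GSTA4 -0.34 ± 0.14, neither of them called (limma, adjusted p = 0.257 and 0.0627). By its dimmer probe set AKR1C1 had the opposite sign, at 0.32, with 6.67 and 6.61 in AICAR and 6.19 and 6.46 in DMSO, so its direction with AICAR is not settled.

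The smaller calls with AICAR in sh-con cells depended on single arrays. GSTA1 was not called without DMSO array 1 (-0.33, adjusted p = 0.226 in limma) or AICAR array 2 (-0.29, adjusted p = 0.221). AKR1C2 was not called without DMSO array 1 (-0.33, adjusted p = 0.28 in limma), AICAR array 1 (-0.46, adjusted p = 0.0651) or AICAR array 2 (-0.45, adjusted p = 0.104). SULT2A1 was not called without DMSO array 1 (-0.35, adjusted p = 0.258 in limma), DMSO array 2 (-0.53, adjusted p = 0.0633) or AICAR array 2 (-0.29, adjusted p = 0.29). After a new quantile normalisation AKR1C2 (-0.39, adjusted p = 0.0683 in limma) and SULT2A1 (-0.35, adjusted p = 0.0514) were not called, and with the 4 arrays fitted alone GSTA1 (-0.45, adjusted p = 0.0543) and SULT2A1 (-0.44, adjusted p = 0.0543) were not. With no filter on level SULT2A1 also missed the threshold (-0.44, adjusted p = 0.0515 in limma). GSTA4 was called with each array centred on its median (-0.48, adjusted p = 0.022 in limma), a scaling that moved the AICAR change of the median gene by -0.14, and after a new quantile normalisation (-0.32, adjusted p = 0.0348).

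In the sh-p53 line 3 of the 7 genes fell with AICAR and none rose, where 16.2% of all genes tested were called higher and 21.6% lower. AKR1C2 fell to 6.96 and 7.40 in sh-p53 AICAR cells, against 7.75 and 7.83 in sh-p53 DMSO cells (-0.61 ± 0.17; limma, adjusted p = 0.00755). AKR1C3 fell by 0.51 ± 0.14 (limma, adjusted p = 0.00935) and GSTA4 by 0.47 ± 0.14 (limma, adjusted p = 0.0144). SULT2A1 had -0.36 ± 0.16 (limma, adjusted p = 0.095) and was called without sh-p53 AICAR array 2 (-0.55, adjusted p = 0.0343) and with centred arrays (-0.51, adjusted p = 0.0321 in limma). GSTA1, GSTA2 and AKR1C1 had -0.08, 0.21 and 0.07, none of them called (limma, adjusted p = 0.68, 0.524 and 0.7). Without sh-p53 DMSO array 2, or without sh-p53 AICAR array 1, none of the 3 falls was called: GSTA4 had -0.42 each time (adjusted p = 0.105 and 0.0996 in limma), AKR1C2 -0.57 and -0.39 (adjusted p = 0.0572 and 0.145), and AKR1C3 -0.49 and -0.41 (adjusted p = 0.0642 and 0.103).

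None of the 7 genes had an AICAR response that differed between the lines by limma's interaction, where 1.01% of all genes tested were called. GSTA2 came nearest, with a difference of responses of -0.96 ± 0.35, sh-p53 minus sh-con (limma interaction, adjusted p = 0.221 and unadjusted p = 0.0131), and was called with the 8 AICAR and DMSO arrays fitted alone (-0.96, adjusted p = 0.0471). GSTA1 had 0.37 (95% interval -0.07 to 0.80) and AKR1C2 -0.15 (95% interval -0.65 to 0.34). The AKR1C3 responses differed by 0.21 (95% interval -0.21 to 0.64). Both interactions use the DMSO arrays that also enter the responses within each line.

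**Figure D4:**
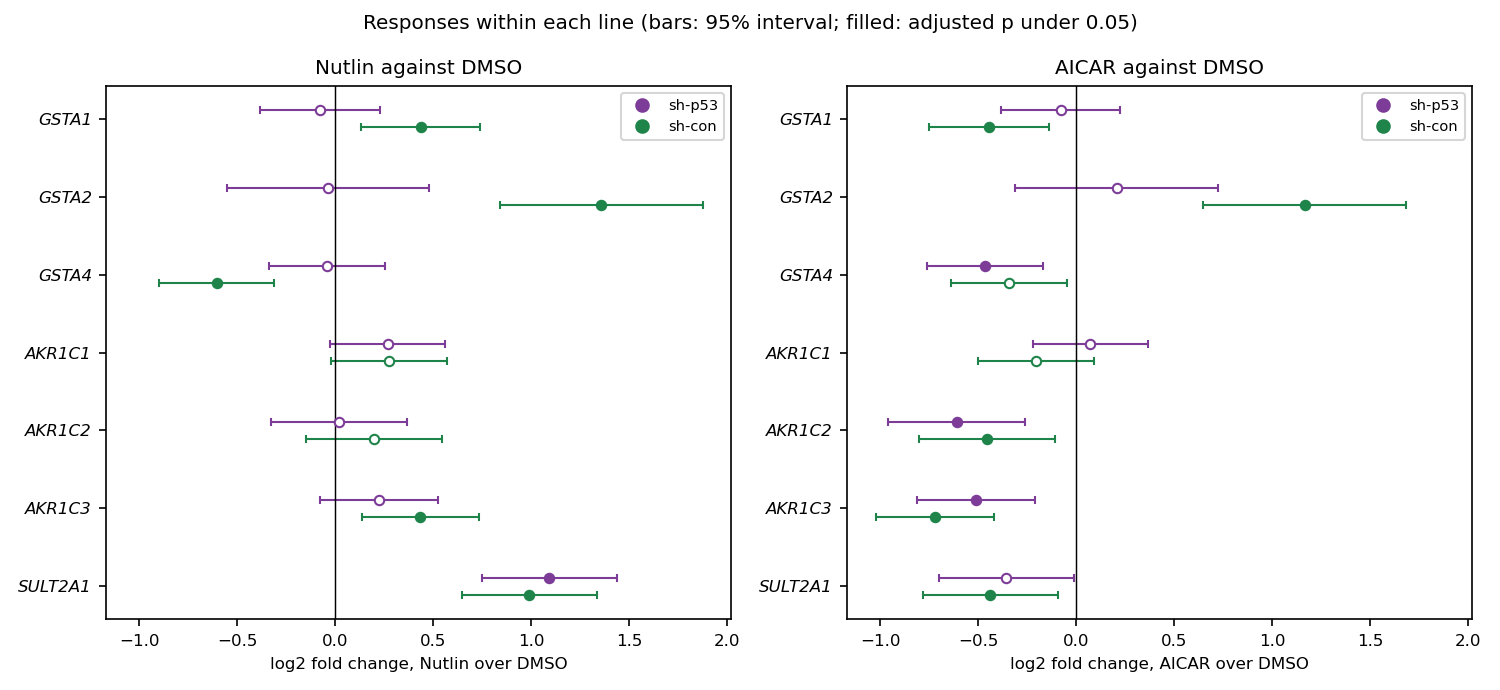
Log2 fold change over DMSO (horizontal axes) of the 7 genes tested (vertical axes) with Nutlin (left) and AICAR (right), in sh-p53 cells (purple) and sh-con cells (green); bars are 95% intervals and filled points had an adjusted p under 0.05. SULT2A1 lies near 1 with Nutlin in both lines, GSTA2 at 1.36 with Nutlin and 1.17 with AICAR in sh-con cells, and AKR1C2 and AKR1C3 lie below 0 with AICAR in both lines.

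Nutlin and AICAR were given at different molar doses, and their arrays were also set against each other. In sh-p53 cells 4 of the 7 genes were higher with Nutlin than with AICAR and none lower, where 19.0% of all genes tested were called higher and 15.6% lower: SULT2A1 by 1.45 ± 0.16, AKR1C3 by 0.74 ± 0.14, AKR1C2 by 0.63 ± 0.17 and GSTA4 by 0.43 ± 0.14 (limma, adjusted p = 3.01e-06, 0.000614, 0.00637 and 0.025). In sh-con cells 5 were higher and none lower, where 17.9% of all genes tested were called higher and 16.9% lower: SULT2A1 by 1.43 ± 0.16, AKR1C3 by 1.16 ± 0.14, GSTA1 by 0.88 ± 0.14, AKR1C2 by 0.65 ± 0.17 and AKR1C1 by 0.48 ± 0.14 (limma, adjusted p = 1.99e-06, 4.71e-06, 0.000103, 0.0045 and 0.0122). GSTA2 had 0.19 between the compounds in sh-con cells (95% interval -0.32 to 0.71). It was called higher with Nutlin without sh-con Nutlin array 1 (0.76, adjusted p = 0.00643 in limma), and had the opposite sign without sh-con Nutlin array 2 (-0.38, adjusted p = 0.176). The gaps of AKR1C2 and GSTA4 in sh-p53 cells were lost without sh-p53 AICAR array 1 (0.41 and 0.38, adjusted p = 0.129 and 0.143 in limma), and that of GSTA4 also without sh-p53 Nutlin array 1 (0.28, adjusted p = 0.253) or sh-p53 AICAR array 2 (0.47, adjusted p = 0.0536). In sh-con cells AKR1C2 was lost without Nutlin array 2 (0.46, adjusted p = 0.0919 in limma), and AKR1C1 without Nutlin array 1 (0.45, adjusted p = 0.0739), without AICAR array 2 (0.45, adjusted p = 0.0537) by the mean of its probe sets (0.33, adjusted p = 0.055) or by its dimmer probe set (0.18, adjusted p = 0.424).

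The genes whose levels followed each member most closely were sought among 2998 tested genes whose 6 group means spanned at least 1 log2 unit, by Pearson's r over the 12 arrays. Arrays of a group share line and treatment, so an r mostly reflects 6 group means and is given as a description. GSTA1 was followed most closely by TSPAN7, a tetraspanin (r = 0.976), and by APOM, an apolipoprotein of high density lipoprotein (r = 0.97). TSPAN7 had means of 6.13, 6.15 and 6.07 in sh-p53 cells with Nutlin, AICAR and DMSO, against 9.21, 9.17 and 8.76 in sh-con cells. GSTA2 was followed most closely by UGT2B7, a glucuronosyltransferase of bile acids and opioids (r = 0.961), and GSTA4 by the replication-dependent histone gene H2BC3 (r = 0.972). AKR1C1 was followed by PTCHD4 (r = 0.962) and by another aldo-keto reductase, AKR1B10 (r = 0.948), AKR1C2 by FST, which encodes follistatin (r = 0.951), and AKR1C3 by MTA3 (r = 0.988). SULT2A1 was followed by ACTA2, smooth muscle actin (r = 0.965), which is among the 11 genes called with Nutlin in sh-p53 cells. Between the members, r was highest for GSTA1 with AKR1C2 (0.954), was 0.813 for GSTA1 with GSTA2, and was lowest for GSTA2 with GSTA4 (-0.614).

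Other enzymes of these pathways were counted by family. Of 15 other glutathione transferases tested, none was called between the lines in DMSO, where 0.261% of all genes tested were called higher and 0.384% lower. The list median there was -0.08, against -0.004 over all genes tested. With Nutlin 5 were higher and 3 lower in sh-p53 cells, against 13.1% higher and 8.31% lower of all genes tested. With AICAR 2 rose and 4 fell in sh-con cells, where 14.6% of all genes tested were called higher and 23.2% lower. In sh-p53 cells 2 rose and 3 fell with AICAR, where 16.2% of all genes tested were called higher and 21.6% lower. GSTM3, of the mu class, rose with AICAR by 1.40 ± 0.19 in sh-p53 cells and by 1.10 ± 0.19 in sh-con cells (limma, adjusted p = 2.16e-05 and 0.000216). The microsomal transferase MGST2 fell by 1.09 ± 0.13 in sh-p53 cells and by 0.66 ± 0.13 in sh-con cells (limma, adjusted p = 6.04e-06 and 0.000798).

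Of 4 other aldo-keto reductases tested, AKR1B10 and AKR1D1 differed between the lines in opposite directions. Of all genes tested, 0.261% were called higher and 0.384% lower in sh-p53 cells with DMSO. These shares were 13.1% and 8.31% with Nutlin and 4.13% and 4.69% with AICAR. AKR1B10, which reduces retinal and lipid aldehydes, was at 7.92 and 8.33 in sh-p53 DMSO cells and at 9.35 and 8.93 in sh-con DMSO cells, lower in sh-p53 cells (-1.02 ± 0.20; limma, adjusted p = 0.0184). That call was lost without sh-p53 DMSO array 1 (-0.81, adjusted p = 0.379 in limma) or sh-con DMSO array 1 (-0.81, adjusted p = 0.407). It was also lower in sh-p53 cells in the other treatments, with log2 fold changes of -1.85 ± 0.20 in Nutlin and -1.27 ± 0.20 in AICAR (limma, adjusted p = 2.02e-06 and 0.000691). AKR1D1, the bile acid enzyme that reduces the steroid double bond, was higher in sh-p53 cells by 2.03 ± 0.18 with Nutlin and by 1.01 ± 0.18 with DMSO (limma, adjusted p = 9.19e-08 and 0.00551). The DMSO call was lost without sh-p53 DMSO array 2 (0.86, adjusted p = 0.155 in limma) or sh-con DMSO array 2 (0.94, adjusted p = 0.0823), and with AICAR AKR1D1 was not called between the lines (0.45 ± 0.18; limma, adjusted p = 0.137). AKR1D1 fell with AICAR by 1.64 ± 0.18 in sh-p53 cells and by 1.07 ± 0.18 in sh-con cells (limma, adjusted p = 1.52e-06 and 0.000113).

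Of 10 other sulfotransferases and sulfate donor enzymes tested, none was called between the lines in DMSO, where 0.261% of all genes tested were called higher and 0.384% lower. With Nutlin 1 was higher and 1 lower in sh-p53 cells, against 13.1% higher and 8.31% lower of all genes tested. The lower 1, SULT1C2, was at 5.58 and 4.82 in sh-p53 Nutlin cells and at 6.21 and 6.24 in sh-con Nutlin cells (-1.02 ± 0.21; limma, adjusted p = 0.00166). Of 6 glucuronidation genes tested, UGT2B4 was lower in sh-p53 cells in each treatment, with log2 fold changes of -0.90 ± 0.15 with Nutlin, -1.46 ± 0.15 with AICAR and -1.01 ± 0.15 with DMSO (limma, adjusted p = 0.000302, 9.45e-06 and 0.00177). Its DMSO call was lost without sh-p53 DMSO array 1 (-0.92, adjusted p = 0.0528 in limma) or sh-con DMSO array 1 (-0.92, adjusted p = 0.0548). UGT2B7 rose in sh-con cells by 1.15 ± 0.22 with Nutlin and by 1.08 ± 0.22 with AICAR (limma, adjusted p = 0.000703 and 0.00083). With AICAR UGT2B10 fell by 1.12 ± 0.17 in sh-p53 cells (limma, adjusted p = 5.53e-05), and it was also called lower in sh-con cells, by 0.46.

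Genes that make glutathione and export conjugates were also counted with AICAR. Of 11 glutathione synthesis and recycling genes tested, 2 rose and 2 fell in sh-p53 cells, and 0 rose and 3 fell in sh-con cells, where 23.2% of all genes tested were called lower. The list median was 0.07 in each line, against 0.067 in sh-p53 cells and 0.035 in sh-con cells over all genes. Among them GCLM, the modifier subunit of the enzyme that limits glutathione synthesis, fell by 0.72 ± 0.19 in sh-p53 cells and by 0.78 ± 0.19 in sh-con cells (limma, adjusted p = 0.00607 and 0.00332). The sh-p53 call was lost without sh-p53 DMSO array 2 (-0.48, adjusted p = 0.12 in limma) or sh-p53 AICAR array 1 (-0.53, adjusted p = 0.101), and the sh-con call without sh-con AICAR array 2 (-0.56, adjusted p = 0.0507). Of 11 export genes tested, 4 fell in sh-p53 cells and 6 in sh-con cells and none rose, against 21.6% and 23.2% of all genes tested called lower. ABCC2, the pump that moves glutathione and glucuronide conjugates into bile, fell by 1.497 ± 0.15 in sh-p53 cells and by 1.17 ± 0.15 in sh-con cells (limma, adjusted p = 6.14e-07 and 7.58e-06). Of 8 other conjugation enzymes tested, 1 rose and 1 fell with AICAR in each line. Of all genes tested, 16.2% were called higher in sh-p53 cells and 14.6% in sh-con cells, and 21.6% and 23.2% were called lower. EPHX1, a microsomal epoxide hydrolase, rose by 0.70 ± 0.15 in sh-p53 cells and by 0.57 ± 0.15 in sh-con cells (limma, adjusted p = 0.00101 and 0.00461), and the sh-con call was lost without sh-con AICAR array 1 (0.41, adjusted p = 0.0528).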

How the data were processed

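The submitters' processing notes name RMA and Partek, with no versions. The values the authors deposited are on the log2 scale, 1 per probe set and array, from 2.14 to 14.33, with array medians of 5.64 to 5.84. No build for the probe sets was given in the sources used here. RMA fits all arrays to 1 distribution, so a shift of most transcripts would be largely removed, and low values are compressed. The deposited values did not share 1 distribution exactly. Centring moved the AICAR change of the median gene by -0.152 in sh-p53 cells and by -0.141 in sh-con cells. For each array 200 ng of RNA were used, per the labels, and wells of 700000 cells were plated in duplicate.

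Of 33297 probe sets, 19460 had 1 gene symbol in the platform annotation, 1754 had several and 12083 were not listed. None of the 1754 named a member. Each of 18417 genes took the values of the probe set with the highest mean among those with its symbol alone, and 13813 genes with a mean of at least 4.577 were tested. All 12 arrays were fitted in 1 model of group means with limma 3.58.1 in R 4.3.3 (residual df 6, prior df 11.34), 2-sided, with Benjamini-Hochberg adjustment within each of 11 comparisons. The fit was tested on simulated data with known changes. With 2 arrays a group, p-values measure the spread between duplicates, and precision is limited by the array number.

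The members and the 16 other gene lists were chosen with earlier results of these data known. From each list at most 4 called genes with the largest change could be named, and for each member the 3 genes most alike in level. Alternatives were no filter, a filter at the 50th percentile, a new quantile normalisation, centring, a trended prior, the mean of probe sets, the arrays of 1 comparison alone, a replicate block and leaving out each array. Promoter sequences came from RefSeq (GRCh38.p14) and matched all 8 genes by symbol. Figures used matplotlib 3.10.9.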

Additional observations from a re-analysis of the deposited data

Results flagged for a closer look

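GSTA2 was singled out because its Nutlin response differed between the lines in a test of that difference. The difference of the log2 responses, sh-p53 minus sh-con, was -1.39 (limma interaction, adjusted p = 0.0169), with both sh-p53 Nutlin arrays lower than both sh-con Nutlin arrays. Both sh-p53 means that enter it, 4.40 with Nutlin and 4.44 with DMSO, lay below the filter level of 4.577, so GSTA2 was tested only through its sh-con levels and its sh-p53 response was read at the floor of the arrays. By the same test CDKN1A had a difference of -1.45, TP53I3 of -3.05 and CYP19A1 of -0.99 (limma interaction, adjusted p = 3.82e-05, 5.74e-08 and 0.0344).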

How the results depend on the processing

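Of 77 tests of a member, 38 were calls. Of these calls 19 held under every alternative run, 19 were lost under at least 1, and 0 changed sign. The 39 other tests gave a call under some alternative in 8 cases and changed sign in 17. Of 275 calls of genes in the other lists, 107 were lost under at least 1 alternative. Replicate numbers did not pair the arrays (deviations of same-numbered arrays correlated between groups at -0.56 to 0.57), and a replicate block left the number of members called the same in all 11 comparisons, while it gave 107 genes for 89 between the lines in DMSO.

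The number of members called moved by over 1.5 times as follows. With the arrays of the comparison alone it was 5 for 3 between the lines in DMSO, 3 for 5 with AICAR in sh-con cells and 1 for 0 in the AICAR interaction. With the 50th percentile filter, which leaves fewer genes tested, it was 2 for 4 between the lines in AICAR, 3 for 5 with Nutlin in sh-con cells and 0 for 1 in the Nutlin interaction. Centring gave 3 for 5 with Nutlin in sh-con cells. Leaving out 1 array gave 2 to 3 members with Nutlin and 2 to 4 with AICAR in sh-con cells, 0 to 1 with Nutlin and 0 to 4 with AICAR in sh-p53 cells, 0 to 1 in the Nutlin interaction and 2 to 4 between the compounds in sh-p53 cells.

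Counts over all genes moved too. Nutlin in sh-p53 cells gave 28 (50th percentile filter), 27 (trended prior) and 67 (arrays alone) for 11, and the lines in DMSO gave 175 (arrays alone) for 89. The AICAR interaction gave 217 (50th percentile filter), 347 (quantile), 89 (centring) and 277 (trended prior) for 140. Leaving out 1 array gave 1716 to 2767 for 2956 between the lines in Nutlin, 521 to 1038 for 1219 in AICAR and 42 to 60 for 89 in DMSO. With Nutlin it gave 5 to 9 for 11 in sh-p53 cells and 2061 to 3350 for 4179 in sh-con cells, and with AICAR 3361 to 4661 for 5217 in sh-p53 cells and 3173 to 5971 for 5221 in sh-con cells. The Nutlin interaction gave 653 to 986 for 1022 and the AICAR interaction 40 to 200 for 140.

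Tests that were no calls and changed sign were these. With a new quantile normalisation GSTA4 between the lines in DMSO was 0.0077. With centring it was 0.0057, AKR1C2 with Nutlin in sh-p53 cells was -0.0254, AKR1C1 with AICAR in sh-p53 cells -0.0801 and AKR1C1 in the Nutlin interaction 0.0075. With the mean of its probe sets AKR1C1 with AICAR in sh-con cells was 0.0588. By its dimmer probe set it was 0.32 there, -0.26 in the AICAR interaction and -0.0037 between the compounds in sh-p53 cells. Leaving out 1 array gave -0.0807 to 0.0782 for GSTA4 between the lines in DMSO and -0.10 to 0.0935 for AKR1C3 between the lines in AICAR. With Nutlin in sh-p53 cells it gave -0.14 to 0.0709 for GSTA2, -0.18 to 0.10 for GSTA4 and -0.0193 to 0.0588 for AKR1C2. With AICAR in sh-p53 cells it gave -0.18 to 0.0158 for GSTA1 and -0.0488 to 0.19 for AKR1C1. The Nutlin interaction ran from -0.13 to 0.11 for AKR1C1, -0.37 to 0.0173 for AKR1C2 and -0.0443 to 0.25 for SULT2A1, and the AICAR interaction from -0.37 to 0.0615 for AKR1C2 and -0.11 to 0.28 for SULT2A1. Nutlin against AICAR ran from -0.0937 to 0.0975 for GSTA1 in sh-p53 cells and from -0.38 to 0.76 for GSTA2 in sh-con cells. The cause was not tested.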

Other observations

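Of 26 NRF2 and antioxidant genes tested, 4 rose, 8 fell and 14 did not pass with AICAR in sh-p53 cells, where 16.2% of all genes tested were called higher and 21.6% lower. In sh-con cells 3 rose, 10 fell and 13 did not pass, where 14.6% of all genes were called higher and 23.2% lower. NFE2L2, which encodes NRF2, was at 8.43 and 8.71 in sh-p53 AICAR cells against 9.82 and 9.91 in sh-p53 DMSO cells, and at 8.94 and 8.86 in sh-con AICAR cells against 10.20 and 10.11 in sh-con DMSO cells. It fell by 1.29 ± 0.14 in sh-p53 cells and by 1.25 ± 0.14 in sh-con cells (limma, adjusted p = 1.34e-06 and 1.61e-06). SLC7A11, the cystine importer that feeds glutathione synthesis, fell by 3.30 ± 0.19 in sh-p53 cells and by 2.36 ± 0.19 in sh-con cells (limma, adjusted p = 3.76e-09 and 6.11e-08). Of 15 drug and bile acid receptors and partners tested, 2 rose and 6 fell in sh-p53 cells and 1 rose and 6 fell in sh-con cells, while 7 did not pass in sh-p53 cells and 8 did not in sh-con cells. PPARGC1A, a coactivator of these receptors, fell by 1.07 ± 0.14 in sh-p53 cells and by 1.10 ± 0.14 in sh-con cells (limma, adjusted p = 1.76e-05 and 1.29e-05).

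NR5A2, a receptor of bile acid synthesis genes, was higher in sh-p53 cells by 2.15 ± 0.17 with Nutlin, 1.16 ± 0.17 with AICAR and 1.43 ± 0.17 with DMSO (limma, adjusted p = 4.07e-08, 0.000393 and 0.000189). Of 10 steroid dehydrogenases and reductases tested, none was called between the lines in DMSO, where 0.261% of all genes tested were called higher and 0.384% lower. HSD17B2, which inactivates oestradiol and testosterone, was lower in sh-p53 cells, with log2 fold changes of -1.14 ± 0.16 with Nutlin and -1.14 ± 0.16 with AICAR (limma, adjusted p = 3.24e-05 and 0.000164). CYP19A1, the aromatase gene, rose with Nutlin by 1.52 ± 0.20 in sh-con cells (limma, adjusted p = 1.17e-05), with 7.41 and 6.95 on the Nutlin arrays and 5.95 and 5.38 on the DMSO arrays. Its Nutlin response was smaller in sh-p53 cells, with a difference of -0.99 ± 0.28 (limma interaction, adjusted p = 0.0344), a call that was lost after a new quantile normalisation (-1.05, adjusted p = 0.0583) and without any 1 of 6 of the 8 arrays (adjusted p up to 0.18).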
